A study of Mus musculus with 13 samples.

Results

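The unfolded protein response genes described here are 10 mouse genes, Ddit3, Atf4, Hspa5, Xbp1, Trib3, Chac1, Herpud1, Dnajb9, Hsp90b1 and Eif2ak3. They were chosen by name and found through their GENCODE identifiers among the 48709 gene rows of the count tables. All 10 passed the filter on low counts, as did 17403 genes in all. The study asked how spinal motoneurons of mutant SOD1 mice, a model of amyotrophic lateral sclerosis, react when astrocytes are made to express an engineered microRNA directed at the human SOD1 transcript. All animals carried the SOD1-G93A transgene and were 65 days old, so no group shows the response in healthy motoneurons. The AAV-miR SOD1 group (n = 4) received an adeno-associated virus (AAV) vector that drives the microRNA in astrocytes, injected into the cerebral ventricles at postnatal day 2. The AAV-miR ctrl group (n = 5) received AAV-miR ctrl at the same age, and the non-injected group (n = 4) were littermates without injection. Each library came from 500 motoneurons of 1 mouse, captured by laser microdissection from lumbar cord frozen within its vertebrae, and its RNA was amplified before sequencing.

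Proteins that fail to fold in the endoplasmic reticulum engage the membrane sensors PERK, IRE1 and ATF6, and the unfolded protein response is the gene programme that follows. PERK, encoded by Eif2ak3, phosphorylates the initiation factor eIF2α, which lowers general translation while Atf4 mRNA is translated more, and ATF4 in turn drives Ddit3, Trib3 and Chac1. IRE1 splices Xbp1 mRNA, and XBP1 and ATF6 raise the chaperones Hspa5, Hsp90b1 and Dnajb9 and the degradation factor Herpud1. In mutant SOD1 mice, signs of this response have been described in the vulnerable motoneurons before the muscles are denervated.

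Promoters are shown because Hspa5, Hsp90b1, Herpud1 and Chac1 carry there the elements through which ATF6, XBP1 and ATF4 are known to act. RefSeq promoters of all 10 members (GRCm38.p6) were searched on both strands for 4 motifs, in a window of 250 bases before and 50 after the start. The motifs were the endoplasmic reticulum stress response element ERSE (CCAAT, any 9 letters, CCACG), ERSE-II (ATTGG, any 1 letter, CCACG), the core of the unfolded protein response element (TGACGTGG) and a core of the amino acid response element bound by ATF4 (TTGCATCA). The 250 bases before the start are printed for the 4 members with a match and for Ddit3, with the fixed letters of each match in capitals and the spacers left in lower case.
Hspa5, chr2:34771840-34772089, plus strand: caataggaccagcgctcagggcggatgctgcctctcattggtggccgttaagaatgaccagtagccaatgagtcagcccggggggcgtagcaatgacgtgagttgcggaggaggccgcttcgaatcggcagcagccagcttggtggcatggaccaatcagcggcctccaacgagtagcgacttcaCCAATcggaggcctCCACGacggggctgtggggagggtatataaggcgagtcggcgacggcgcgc
Hsp90b1, chr10:86705445-86705694, minus strand: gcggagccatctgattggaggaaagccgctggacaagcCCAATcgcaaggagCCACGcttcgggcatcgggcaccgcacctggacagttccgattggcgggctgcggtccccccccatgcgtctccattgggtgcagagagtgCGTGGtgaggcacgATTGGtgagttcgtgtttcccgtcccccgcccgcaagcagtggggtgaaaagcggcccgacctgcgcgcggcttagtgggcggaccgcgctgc
Herpud1, chr8:94386179-94386428, plus strand: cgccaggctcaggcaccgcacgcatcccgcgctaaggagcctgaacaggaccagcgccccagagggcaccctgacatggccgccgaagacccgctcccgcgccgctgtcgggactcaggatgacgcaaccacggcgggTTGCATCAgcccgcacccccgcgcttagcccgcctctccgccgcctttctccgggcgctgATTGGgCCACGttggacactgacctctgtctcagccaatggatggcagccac
Chac1, chr2:119350992-119351241, plus strand: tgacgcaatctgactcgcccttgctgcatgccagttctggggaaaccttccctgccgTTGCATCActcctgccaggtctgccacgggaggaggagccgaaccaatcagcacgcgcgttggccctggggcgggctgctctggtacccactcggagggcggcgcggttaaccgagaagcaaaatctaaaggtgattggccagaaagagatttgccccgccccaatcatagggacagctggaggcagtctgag
Ddit3, chr10:127290543-127290792, plus strand: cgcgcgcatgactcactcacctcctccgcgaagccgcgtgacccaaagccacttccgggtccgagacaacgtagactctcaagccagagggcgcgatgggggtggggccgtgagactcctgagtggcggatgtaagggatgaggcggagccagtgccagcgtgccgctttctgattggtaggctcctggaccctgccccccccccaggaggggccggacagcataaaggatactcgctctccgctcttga
In Hspa5 the ERSE lay 65 to 47 bases upstream of the start. GENCODE places the 5′ end of Hspa5 further upstream than RefSeq does. Hsp90b1 held 2 ERSE matches, at 212 to 194 bases upstream and, on the opposite strand, at 107 to 89. Herpud1 held an ERSE-II at 52 to 42 bases and the TTGCATCA core at 112 to 105, and Chac1 held that core at 193 to 186. Among 32851 promoter windows of the same length, ERSE occurred in 0.119%, ERSE-II in 0.0365%, the TTGCATCA core in 0.895% and TGACGTGG in 0.676%. The other 6 members, Ddit3 among them, held 0 matches in these windows, which says only that these letters are not there.

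Depth ranged from 13.9 to 37.4 megacounts in genes, and the 4 deepest libraries, numbered 5 and 6, were all controls. Reads counted in genes were 38.4% to 53.0% of all reads counted. In 2 tables the header named another group than the label did, for non-injected replicate 3 and for replicate 3 of AAV-miR ctrl. The labels were followed. Differences of the members and list genes named below are also given without these 2 libraries. All 7 motoneuron markers (Chat, Slc5a7, Slc18a3, Isl1, Mnx1, Prph and Nefh) were detected in each group, with Chat, the enzyme of acetylcholine synthesis, at 39.1 CPM (reads scaled to a fixed library size, after TMM correction of each library's total) or more in every library. Summed over the 7, motoneuron markers ran from 1376 to 2498 CPM in AAV-miR SOD1, from 2000 to 4537 in AAV-miR ctrl and from 2221 to 5269 in non-injected libraries. Markers of blood cells were also high. The 5 erythroid markers summed to 15036 to 33640, 2529 to 20457 and 3977 to 14624 CPM in the same order of groups, and the 7 neutrophil granule markers to 28466 to 77393, 9969 to 66156 and 14243 to 23131. The 7 microglia markers summed to 671 to 918, 385 to 1099 and 239 to 583 CPM, and 7 of 7 had a higher mean in AAV-miR SOD1 than in non-injected libraries. For 4 of them the unadjusted p was under 0.05 (edgeR), beside 9.36% of all genes higher at that level. There 5 of 5 erythroid, 4 of 7 neutrophil granule, 3 of 6 B lineage and 2 of 5 plasma cell markers were higher too. At the same level 7 of 7 motoneuron markers and 1 of 7 astrocyte markers were lower, beside 11.5% of all genes. The 7 astrocyte markers summed to 459 to 575, 568 to 1011 and 540 to 782 CPM. Of these, 0 of 7 were higher in AAV-miR SOD1 than in AAV-miR ctrl, and 3 of 7 were higher than in non-injected libraries. The 6 oligodendrocyte markers summed to 1193 to 2737, 1137 to 4532 and 1833 to 2815 CPM, and the 6 B lineage markers to 289 to 640, 187 to 479 and 66.7 to 284. The 5 endothelial markers summed to 68.8 to 172 CPM over all libraries and the 5 bone and connective tissue markers to 5374 to 34152. No marker of any list was at 0 throughout a group. In such samples fewer cells of a type and less RNA per cell cannot be told apart.

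In level per length, on the scale of CPM per kilobase of exon, the chaperone Hspa5 (BiP, the Hsp70 of the endoplasmic reticulum) stood highest at 103.6 ± 19.6 (SD, n = 13 libraries). Atf4 followed at 73.8 ± 8.8, Hsp90b1 at 68.3 ± 10.05, Herpud1 at 61.7 ± 9.2 and Xbp1 at 56.9 ± 26.5. Lower down came Chac1 at 38.6 ± 19.5, Ddit3 at 28.1 ± 13.5 and Dnajb9 at 16.1 ± 4.8. Trib3 at 2.1 ± 0.9 and Eif2ak3 at 2.0 ± 0.8 were the lowest. Neighbours in this order differed by more than their spread in only 2 places, from Hspa5 to Atf4 and from Dnajb9 to Trib3. Trib3, the least counted member, had 27 to 242 reads per library, whereas Hspa5 had 5804 to 24633.

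**Figure D1:**
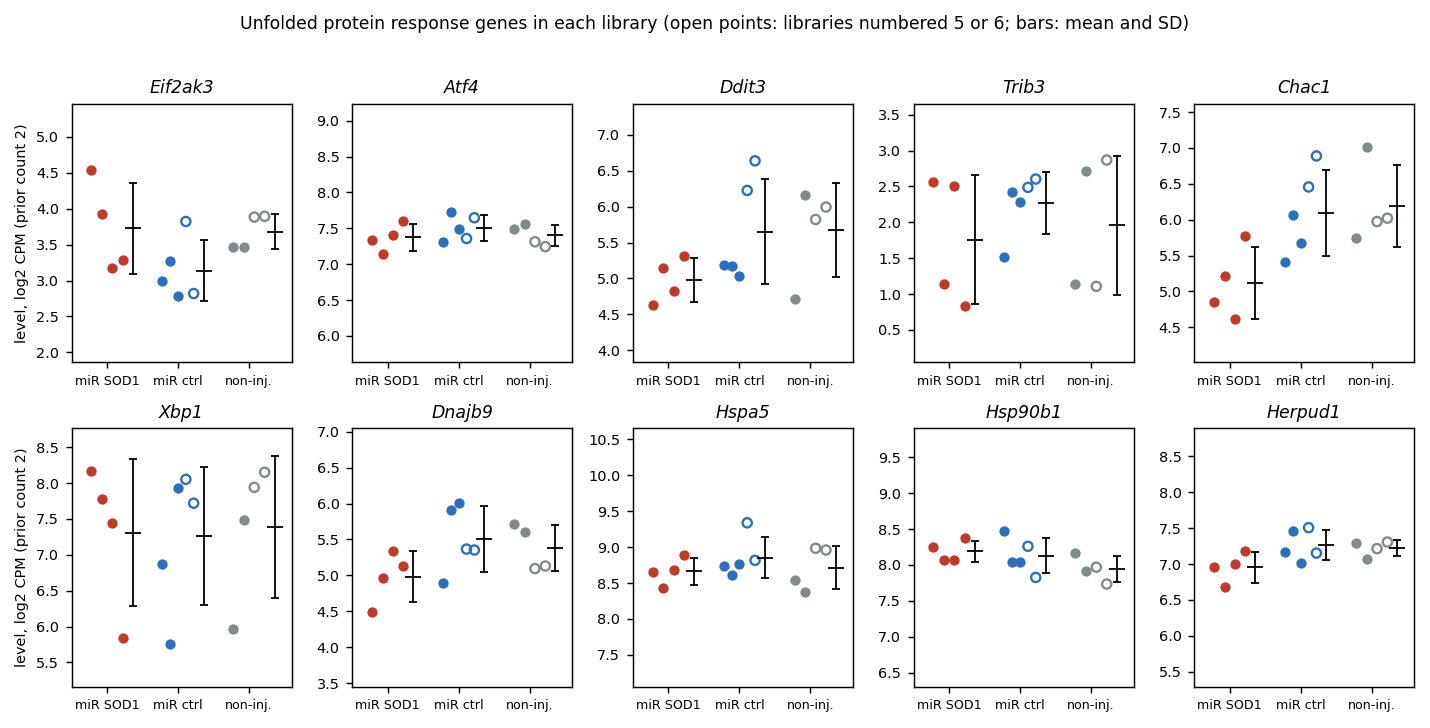
Level of each of the 10 members in each of the 13 libraries (log2 CPM with a prior count of 2, vertical axis) by group (horizontal axis); points are libraries and bars are group means. The groups overlap for every member, and Xbp1 runs from 53.9 to 288 CPM while Atf4 stays between 141 and 213.

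The members differed in how much they varied between mice. Atf4 varied 1.51-fold between the lowest and the highest library, Hsp90b1 1.67-fold, Herpud1 1.78-fold and Hspa5 1.96-fold. Their within-group SDs, from 0.17 to 0.26 on the log2 CPM scale, lay between the 2.21 and 11.8 percentiles of all genes tested. Xbp1 varied 5.34-fold, Chac1 5.30-fold, Trib3 4.08-fold and Ddit3 4.02-fold, against a median of 3.74-fold over all genes. Eif2ak3 varied 3.37-fold and Dnajb9 2.85-fold. By within-group SD, Dnajb9 stood at the 30.4 percentile of all genes, Eif2ak3 at 40.6, Chac1 at 52.5, Ddit3 at 57.7, Trib3 at 71.5 and Xbp1 at 82.6. Atf4, Herpud1, Hsp90b1 and Hspa5 were thus steadier than most genes, Chac1 and Ddit3 lay near the median and Xbp1 was the most variable member. The percentiles were not taken among genes of like level. Atf4, Herpud1, Hsp90b1 and Hspa5 were also the members highest in level per length, and the part of level in their steadiness was not tested.

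No member differed between any groups after adjustment over all genes (edgeR's quasi-likelihood F test, Benjamini-Hochberg adjusted p, threshold 0.05). The background was as empty, since 0.00% of the 17403 genes passed in each of the 4 comparisons, and the smallest adjusted p over all genes was 0.0960, in AAV-miR SOD1 versus both control groups. At an unadjusted p under 0.05, 2 of 10 members (Ddit3 and Chac1) were lower and 0 higher in AAV-miR SOD1 than in AAV-miR ctrl, where 8.54% of all genes were lower and 5.99% higher. Against non-injected libraries 1 member (Chac1) was lower and 0 were higher, beside 11.5% and 9.36% of all genes. Against both control groups together the same 2 members were lower and 0 higher, beside 12.1% and 10.2%. Without the 2 libraries whose headers disagree, 2 members were past that level against AAV-miR ctrl, 0 against non-injected and 1 against both. Between AAV-miR ctrl and non-injected libraries 0 members were past that level, with 2.24% of genes lower and 1.38% higher. The comparisons share libraries, so their values are not independent of each other. The median log2 fold change over the 10 members was -0.26 against AAV-miR ctrl, -0.15 against non-injected and -0.21 against both, where the medians of all genes were -0.04, -0.09 and -0.06.

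**Figure D2:**
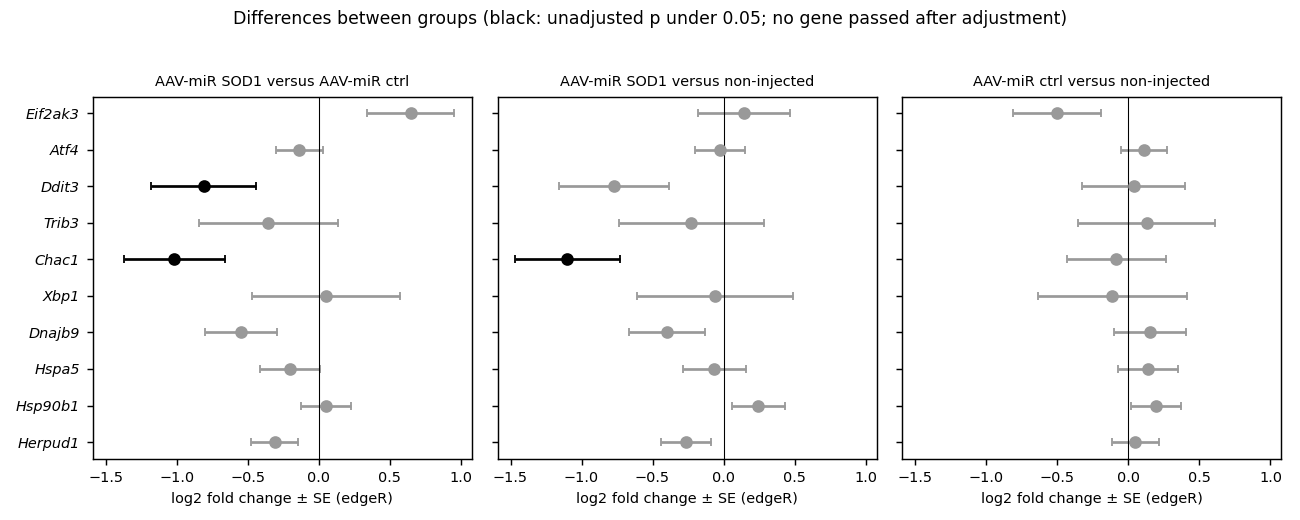
Difference of each member between each pair of groups, as edgeR log2 fold change (horizontal axis) with its standard error (bars). Chac1 and Ddit3 lie furthest to the left in both comparisons of AAV-miR SOD1. They are at -1.02 and -0.81 against AAV-miR ctrl and at -1.10 and -0.77 against non-injected libraries. No difference passed an adjusted p of 0.05.

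Eif2ak3, the PERK sensor itself, was measured at low level. It was at 23.2, 15.1, 8.91 and 9.67 CPM in AAV-miR SOD1 replicates 1 to 4. AAV-miR ctrl replicates 1, 3, 4, 5 and 6 had 7.91, 9.54, 6.82, 14.1 and 6.97 CPM. Non-injected replicates 2, 3, 5 and 6 had 11.03, 10.99, 14.7 and 14.8 CPM. AAV-miR SOD1 replicate 1 was the highest library, and the groups overlapped. In edgeR the log2 fold change came to 0.65 ± 0.31 (SE) over AAV-miR ctrl (adjusted p = 0.352) but 0.14 ± 0.33 over non-injected (adjusted p = 0.838). In the libraries whose headers agree, these were 0.73 and 0.16. An antisense gene, Gm43292, overlaps 8.05% of the Eif2ak3 exons, and the strand setting of the counts is not given in the sources used here.

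Atf4, the transcription factor whose translation PERK favours, was the steadiest member in mRNA level. It lay between 141 and 194 CPM in AAV-miR SOD1, 159 and 213 in AAV-miR ctrl and 152 and 188 in non-injected libraries. The log2 fold change was -0.08 ± 0.15 (SE) against both control groups (edgeR, adjusted p = 0.797), and 0.039 without the 2 libraries whose headers disagree. ATF4 is set largely at translation, which these counts do not measure.

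Ddit3 encodes CHOP, a transcription factor that ATF4 induces and that is known for driving cell death under lasting stress. The gene lies at chr10:127290774-127296288 (GRCm38, plus strand). It was at 24.7, 35.4, 28.1 and 39.5 CPM in AAV-miR SOD1 replicates 1 to 4. AAV-miR ctrl replicates 1, 3, 4, 5 and 6 had 36.5, 36, 32.8, 74.7 and 99.5 CPM. Non-injected replicates 2, 3, 5 and 6 had 26.1, 71.7, 56.5 and 63.7 CPM. All 4 AAV-miR SOD1 libraries lay low, but so did 3 of 5 AAV-miR ctrl libraries and non-injected replicate 2. EdgeR gave a log2 fold change of -0.81 ± 0.37 (SE) relative to AAV-miR ctrl (adjusted p = 0.334), -0.77 ± 0.38 against non-injected (adjusted p = 0.271) and -0.79 ± 0.34 against both (adjusted p = 0.190). Once libraries with disagreeing headers were left out, the values were -0.87, -0.53 and -0.70 in the same order. An antisense gene, Mars, shares 3.97% of the Ddit3 exon bases, and its part in the counts is not known.

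Chac1, an enzyme that degrades glutathione and a target of the ATF4 and CHOP branch, was the member with the largest difference. The gene lies at chr2:119351229-119354381 (GRCm38, plus strand), and its promoter holds the TTGCATCA core printed above. It was at 28.9, 37.0, 24.4 and 54.7 CPM in AAV-miR SOD1 replicates 1 to 4. AAV-miR ctrl replicates 1, 3, 4, 5 and 6 had 42.2, 66.8, 50.8, 87.7 and 118 CPM. Non-injected replicates 2, 3, 5 and 6 had 53.5, 130, 62.8 and 64.8 CPM. AAV-miR SOD1 replicate 4 reached into both control groups, and the other 3 lay below every control. EdgeR gave a log2 fold change of -1.06 ± 0.33 (SE) relative to both control groups (adjusted p = 0.107). It was -1.02 ± 0.35 against AAV-miR ctrl (adjusted p = 0.276) and -1.10 ± 0.37 against non-injected (adjusted p = 0.147). Without the 2 libraries whose headers disagree, the difference was -0.83 against both control groups, -0.99 against AAV-miR ctrl and -0.66 against non-injected.

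The call on Chac1 depended on the tool and on 1 library. DESeq2 placed Chac1 past the threshold against both control groups (log2 fold change -1.03, adjusted p = 0.0292), where it called 1 of 10 members and 10.4% of the 14656 genes to which it gave an adjusted p. EdgeR did so when AAV-miR ctrl replicate 1 was left out (-1.13, adjusted p = 0.0414), with 1 of 10 members and 9.84% of 17217 genes called. Limma-voom with quality weights called 0 of 10 members there and 8.40% of all genes. Over all alternatives the adjusted p of Chac1 in this comparison ran from 0.0292 to 0.499. The share of members in the first 2 was close to the share of all genes.

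Levels of Ddit3 and Chac1 ran with the motoneuron markers. The 5 libraries with the highest summed motoneuron markers (AAV-miR ctrl replicates 5 and 6 and non-injected replicates 3, 5 and 6, at 3693 to 5269 CPM) were the 5 highest in Ddit3, and 4 of them were among the 5 highest in Chac1. This was not particular to Chac1, since they also held 4 of the 5 highest in Hspa5. They held 3 in Eif2ak3, Herpud1, Trib3 and Xbp1, 2 in Atf4 and Dnajb9, and 1 in Hsp90b1. Such counts were not taken over all genes, so how usual they are is not known. Of these 5 libraries, the ones numbered 5 and 6 were also the deepest of all. Ratios to the motoneuron markers were taken for Ddit3 and Chac1 only, after the data were seen. The other 8 libraries, with 1376 to 2498 CPM of motoneuron markers, had 24.7 to 39.5 CPM of Ddit3. Per 1000 CPM of motoneuron markers, Ddit3 came to 14.2 to 20.5 CPM in AAV-miR SOD1, 14.4 to 24.7 in AAV-miR ctrl and 11.8 to 17.2 in non-injected libraries. The difference in Ddit3 against both control groups was then 0.17 on the log2 scale, in place of -0.79. Chac1 per 1000 CPM of these markers was at 14.8 to 27.7, 19.3 to 29.4 and 13.9 to 24.6 CPM in the same order. Its difference was -0.17 in place of -1.06. All 7 motoneuron markers were lower against both control groups (median log2 fold change -1.10), so dividing by them raises the difference of any gene. The ratios therefore do not show what set the Ddit3 and Chac1 differences. The sums of the 5 erythroid and 7 neutrophil granule markers given above were also higher in most AAV-miR SOD1 libraries, with overlap, as were the microglia markers. The part of any of these markers in the differences was not tested.

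**Figure D3:**
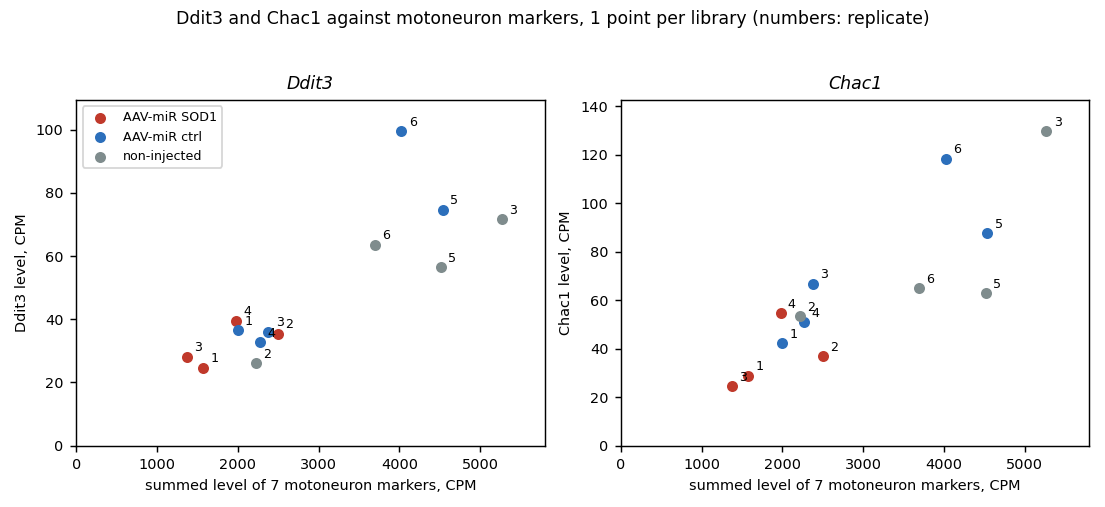
Ddit3 and Chac1 level in CPM (vertical axes) against the summed CPM of 7 motoneuron markers (horizontal axes); each point is a library, coloured by group and labelled with its replicate number. The 5 libraries at 3693 CPM of motoneuron markers or more hold the 5 highest Ddit3 values, and none of them is an AAV-miR SOD1 library.

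Ddit3 and Chac1 were also higher in the libraries numbered 5 and 6 than in most of those numbered 1 to 4, with overlap for both genes. This was not particular to them. The medians of Hspa5 (502 against 403 CPM), Xbp1 (255 against 175), Herpud1, Trib3 and Eif2ak3 were higher there too. Those of Atf4, Dnajb9 and Hsp90b1 were lower. In the libraries numbered 5 and 6, all controls, Ddit3 was at 56.5 to 99.5 CPM and Chac1 at 62.8 to 118. Among those numbered 1 to 4, Ddit3 lay at 24.7 to 39.5 CPM in AAV-miR SOD1, 32.8 to 36.5 in AAV-miR ctrl, and 26.1 and 71.7 in non-injected libraries. The 71.7 CPM of non-injected replicate 3 lay inside the range of the libraries numbered 5 and 6. Chac1 among those numbered 1 to 4 was at 24.4 to 54.7, 42.2 to 66.8, and 53.5 and 130 CPM in the same order, so that non-injected replicate 3 lay above every library numbered 5 or 6. Within these 9 libraries the log2 fold change of Ddit3 against AAV-miR ctrl was -0.13 ± 0.33 (SE), and that of Chac1 was -0.55 ± 0.36. Against both control groups the values were -0.36 ± 0.29 and -0.93 ± 0.33. The control libraries numbered 3, whose headers disagree with their labels, are among these 9. By its header, the library with 71.7 CPM of Ddit3 and 130 CPM of Chac1 would count as AAV-miR ctrl. Over all 13 libraries, following the headers took Ddit3 against AAV-miR ctrl from -0.81 to -0.98. The 9 libraries alone were not fitted by header, so their values against AAV-miR ctrl rest on the labels. Whether the numbers mark a batch is not given in the sources used here, and the libraries numbered 5 and 6 hold no AAV-miR SOD1 animal to compare.

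Trib3, a pseudokinase that ATF4 and CHOP induce, ranged from 1.71 to 5.83 CPM among AAV-miR SOD1 libraries, 2.78 to 5.99 in AAV-miR ctrl and 2.07 to 7.22 in non-injected libraries. Its log2 fold change against both control groups was -0.29 ± 0.44 (SE; edgeR, adjusted p = 0.749), and -0.087 without the 2 libraries whose headers disagree. Each group held libraries near 2 to 3 CPM and others above 5, and all 3 groups overlapped.

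Xbp1, whose mRNA IRE1 splices into the form that encodes the active factor, was the most variable member. Gene counts do not separate the spliced from the unspliced form. It was at 288, 219, 175 and 57.1 CPM in AAV-miR SOD1 replicates 1 to 4. AAV-miR ctrl replicates 1, 3, 4, 5 and 6 had 117, 53.9, 244, 265 and 211 CPM. Non-injected replicates 2, 3, 5 and 6 had 62.5, 179, 245 and 284 CPM. Each group held 1 library at 53.9 to 62.5 CPM and others above 200, and the log2 fold change against both control groups was -0.00 ± 0.47 (SE), and -0.061 without the 2 libraries whose headers disagree. Xbp1 is also abundant in plasma cells, whose 5 markers summed to 274 to 1086 CPM in AAV-miR SOD1, 94.6 to 998 in AAV-miR ctrl and 76.4 to 586 in non-injected libraries. The 3 libraries lowest in Xbp1 (AAV-miR ctrl 3, AAV-miR SOD1 4 and non-injected 2) had plasma cell sums of 501, 597 and 586 CPM, and the 3 highest (AAV-miR SOD1 1, non-injected 6 and AAV-miR ctrl 5) had 1023, 528 and 94.6. The part of plasma cells in the Xbp1 level was not tested.

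Against both control groups together, the chaperones Hspa5 and Hsp90b1 differed by less than their within-group SDs. Hspa5 was at 403, 346, 411 and 476 CPM in AAV-miR SOD1 replicates 1 to 4. AAV-miR ctrl replicates 1, 3, 4, 5 and 6 had 428, 391, 435, 648 and 451 CPM. Non-injected replicates 2, 3, 5 and 6 had 374, 331, 506 and 498 CPM. AAV-miR ctrl replicate 5 stood above all other libraries, and the groups overlapped. The log2 fold change against both control groups was -0.13 ± 0.19 (SE) for Hspa5 and 0.15 ± 0.16 for Hsp90b1, the Hsp90 of the endoplasmic reticulum. In the libraries whose headers agree, these were -0.15 and 0.19. Hsp90b1 lay between 269 and 330 CPM in AAV-miR SOD1, 227 and 355 in AAV-miR ctrl and 213 and 286 in non-injected libraries. Against non-injected libraries alone its log2 fold change was 0.25 ± 0.19 (SE; edgeR, adjusted p = 0.487), above its within-group SD of 0.20. The antisense gene 1810014B01Rik shares 10.3% of the Hsp90b1 exon bases, and Gm25745 and Gm15344 on the same strand share 3.30% and 2.08%. How many reads this affects is not known.

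Dnajb9 (ERdj4), a co-chaperone of BiP, lay at 22.4 to 40.5 CPM in AAV-miR SOD1, 29.6 to 64.0 in AAV-miR ctrl and 34.1 to 52.5 in non-injected libraries. Its log2 fold change was -0.47 ± 0.23 (SE) against both control groups (edgeR, adjusted p = 0.251). Herpud1, a membrane protein of the degradation machinery whose promoter carries both an ERSE-II and the TTGCATCA core, was at 102 to 145, 130 to 182 and 135 to 158 CPM in the same order. Its log2 fold change was -0.29 ± 0.15 (adjusted p = 0.286). Once libraries with disagreeing headers were left out, the values were -0.33 for Dnajb9 and -0.22 for Herpud1. Both were lower on average in AAV-miR SOD1 by less than the test could separate from the spread between mice. Between AAV-miR ctrl and non-injected libraries the log2 fold changes of 9 members lay between -0.11 and 0.19, and that of Eif2ak3 was -0.50 ± 0.31 (SE; edgeR, adjusted p = 1.00).

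The other genes of the response were read from 4 lists, and 0 of their genes passed an adjusted p of 0.05 in edgeR. In the PERK and integrated stress response list (30 genes), 3 were higher and 9 lower at an unadjusted p under 0.05 against both control groups, where 10.2% of all genes were higher and 12.1% lower. The list's median log2 fold change was -0.16, beside -0.06 over all genes. Without the 2 libraries whose headers disagree, 8 of the 30 were past that level, and the median was -0.12. Fgf21, a secreted hormone that ATF4 induces, had the smallest p of this list. It ranged from 5.50 to 20.0 CPM in AAV-miR SOD1, 20.3 to 68.8 in AAV-miR ctrl and 24.8 to 73.2 in non-injected libraries, with 20.0 and 20.3 as the nearest values. EdgeR gave a log2 fold change of -1.65 ± 0.42 (SE, adjusted p = 0.0960). Ppp1r15a encodes GADD34, which brings the phosphatase that reverses eIF2α phosphorylation, and it went the other way. Its range was 66.5 to 163 CPM in AAV-miR SOD1, 36.6 to 93.1 in AAV-miR ctrl and 25.4 to 81.1 in non-injected libraries (1.12 ± 0.31, adjusted p = 0.0972). The other 2 on the higher side were Ppp1r15b, the constitutive partner of that phosphatase (0.66), and Eif2ak1, the heme-regulated eIF2α kinase (0.66). On the lower side were the transcription factor Atf3 (-1.19), the tRNA synthetases Wars (-0.62), Sars (-0.59) and Aars (-0.51), the amino acid enzymes Asns (-0.56) and Psat1 (-0.39), and Ddit4 (-0.69) and Vldlr (-0.59). The count over this list was 5 to 15 across alternatives. In the libraries whose headers agree, Fgf21 was at -1.52 and Ppp1r15a at 1.02, and the other 10 kept their direction, from -1.31 for Atf3 to 0.67 for Eif2ak1. The names of these 10 were chosen after their values were seen. In DESeq2, which called 10.4% of all genes against both control groups, Fgf21 was called lower and Ppp1r15a higher in this list. The 5 libraries highest in motoneuron markers were also the 5 highest in Fgf21, Wars, Sars, Aars, Asns and Vldlr. They held 4 of the 5 highest in Psat1 and in Atf3, 3 in Ddit4, 2 in Ppp1r15a and in Eif2ak1, and 0 in Ppp1r15b. Such counts were not taken over all genes. The genes of this list were not set against the erythroid and neutrophil granule markers in this way. The part of motoneuron or blood cell markers in the differences was not tested.

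Of the 24 genes in the IRE1, ATF6 and chaperone list, 1 was higher and 1 lower at that level, beside 10.2% and 12.1% of all genes, with a median of 0.10. They were Sec61b, a subunit of the protein translocation channel (0.57 ± 0.22, edgeR adjusted p = 0.143), and Creb3, a membrane-bound transcription factor (-0.64 ± 0.20, adjusted p = 0.108). Creb3 lay at 52.5 to 69.3 CPM in AAV-miR SOD1, 69.9 to 139 in AAV-miR ctrl and 74.6 to 108 in non-injected libraries, and its 5 highest libraries were again the 5 highest in motoneuron markers. DESeq2 also called Creb3 lower. Once libraries with disagreeing headers were left out, Creb3 was at -0.59 and Sec61b at 0.63. In the degradation list (16 genes), 0 were past that level in either direction and the median was -0.03. The 2 with the smallest p were Edem1, a lectin that sorts glycoproteins for degradation (0.91 ± 0.44, edgeR adjusted p = 0.241), and Ube2g2, a ubiquitin-conjugating enzyme (-0.30 ± 0.19, adjusted p = 0.362). Of 6 cell death genes named as CHOP targets, 1 was higher, Bcl2l11, which encodes the death-promoting protein BIM (0.85 ± 0.30, adjusted p = 0.133), and 0 lower, beside the same shares of all genes. Without the 2 libraries whose headers disagree, Bcl2l11 was at 0.94, Edem1 at 0.86 and Ube2g2 at -0.23. The 5 libraries highest in motoneuron markers held 0 of the 5 highest in Sec61b and in Bcl2l11, 3 in Edem1 and 2 in Ube2g2. Here too such counts were not taken over all genes. Tnfrsf10b was at most 0.632 CPM in any library.

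**Figure D4:**
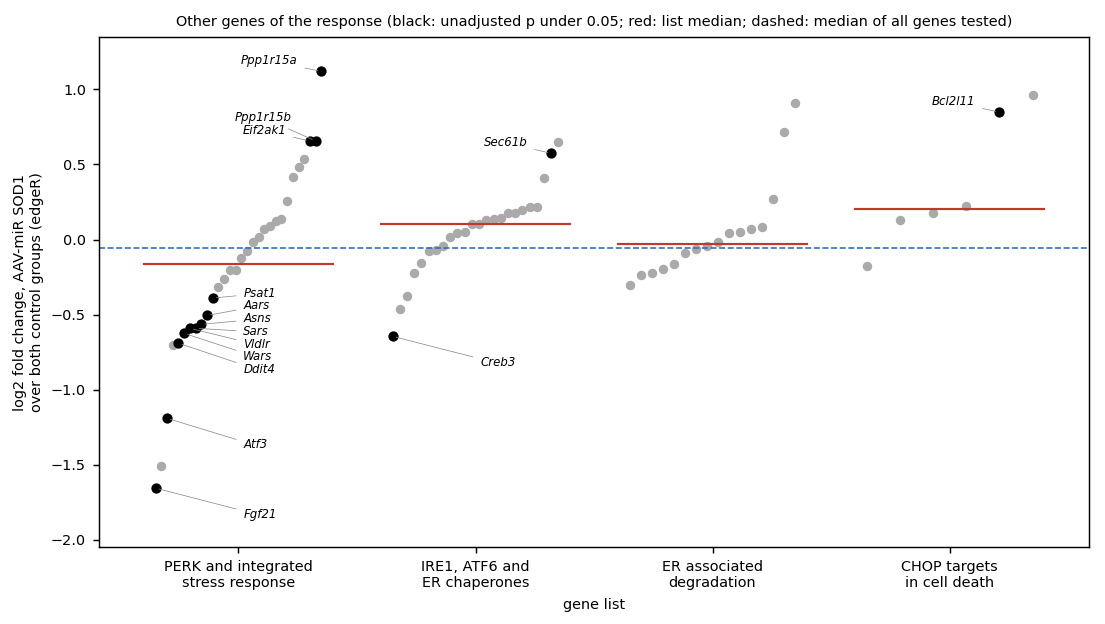
Log2 fold change of each gene of the 4 lists in AAV-miR SOD1 versus both control groups (vertical axis), by list (horizontal axis); black points had an unadjusted p under 0.05, red lines are list medians and the dashed line is the median of all genes. In the PERK list 9 genes lie below and 3 above among the black points, with Fgf21 lowest at -1.65 and Ppp1r15a highest at 1.12.

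Across the 13 libraries, the members did not move as 1 block. As deviations of log2 CPM from the group mean, which share depth and cell mixture, Ddit3 and Chac1 had a Pearson r of 0.80, but Ddit3 and Atf4 had 0.00 and Ddit3 and Hspa5 had 0.38. Hspa5 and Herpud1 had 0.57, and Hspa5 and Hsp90b1 had 0.11. Among all genes tested, Chac1 ranked only 695 in likeness to Ddit3, and Herpud1 ranked 743 in likeness to Hspa5. Some pairs of members were negative, among them Atf4 and Xbp1 at -0.63, Ddit3 and Hsp90b1 at -0.45, and Xbp1 and Herpud1 at -0.44. Among the genes most like Ddit3 were Las1l, Rrp1, Myh10 and Flot1, with r from 0.95 to 0.96. Those most like Xbp1 were Cox18, Zbed3, Stx6, Cog8 and Tmem9b, from 0.97 to 0.98. Those most like Hspa5 were Cbfa2t2, Sesn1, Ggcx, Slc39a7 and Siae, from 0.87 to 0.89, and those most like Atf4 were Gm8513, Gm42903, Gm7985, Pigyl and Gm12286, from 0.90 to 0.92. These values are a description, chosen as the highest of 17403 genes.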

How the data were processed

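RNA of 13 motoneuron libraries was measured as read counts per gene, deposited by the authors as raw values. The submitters' processing notes list cutadapt 1.8, STAR 2.5.2b, HTSeq 0.6.1 and build GRCm38. The strand setting and annotation release are not given in the sources used here. Groups came from the titles. The 5 summary rows were left out. Symbols came from GENCODE M21 (48349 of 48709 rows), whose exon lengths gave CPM per kilobase. Genes were filtered (edgeR filterByExpr, minimum count 10, minimum total 15), scaled by TMM and tested with edgeR 4.0.16 in R 4.3.3 on all 13 libraries (3 groups, 10 residual degrees of freedom, biological coefficient of variation 0.470). Fits were tested on simulated data. Replicate pairs differed beyond sampling noise (chi-square per degree of freedom at least 46.1). Log2 CPM used a prior count of 2.

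Alternatives were other scalings, filters, DESeq2 1.42.0, limma-voom with quality weights (limma 3.58.1), a replicate block, library subsets and the header groups. Libraries numbered 5 and 6 alone, and scaling to motoneuron markers, were added after seeing the data. Members and lists were chosen with earlier results of these data known. All members are named, with list genes past an adjusted p of 0.05 or else the 2 with the smallest p against both control groups, and the 5 genes most like Hspa5, Atf4, Ddit3 and Xbp1, of which 1 is not reported here.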

Additional observations from a re-analysis of the deposited data

Results flagged for a closer look

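Of 30 groups of library values of the members (10 genes in 3 groups), 1 held a library far from the others, where chance gives about 1 in 20. Hspa5 in AAV-miR ctrl replicate 5 was at 9.34 log2 CPM (648 CPM), and the other 4 libraries of that group lay between 8.61 and 8.82. The gap was 0.719 of the group's range.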

How the results depend on the processing

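In edgeR 0 genes passed in each of the 4 comparisons. DESeq2 called 180 genes in AAV-miR SOD1 versus AAV-miR ctrl, 1025 against non-injected, 1521 against both control groups and 2 between the controls. Against both control groups limma-voom with quality weights called 1461 genes, and edgeR without a filter 1. Limma-voom there called Fgf21, Ppp1r15a, Sec61b and Bcl2l11 and no member, and edgeR without AAV-miR ctrl replicate 1 called these, Creb3 and Ppp1r15b, besides Chac1. The 17 list genes so recomputed kept their direction under all alternatives run. Leaving out 1 library gave 0 to 1694 genes (1694 without AAV-miR ctrl replicate 1, 121 without AAV-miR SOD1 replicate 3, 1 without AAV-miR SOD1 replicate 4) and 0 to 1 members. DESeq2 called 1 member there. In 928 recomputed values of the members, 826 kept their sign and side of the threshold, 2 newly passed and 100 changed sign. The log2 differences that took the other sign are given by setting, and the cause was not tested. RLE scaling gave Atf4 0.017 and Xbp1 0.0035 in AAV-miR SOD1 versus non-injected, Xbp1 0.048 in AAV-miR SOD1 versus both control groups. Upper quartile scaling gave Atf4 0.027, Hspa5 0.0070 and Xbp1 0.013 in AAV-miR SOD1 versus non-injected, Xbp1 0.039 in AAV-miR SOD1 versus both control groups. Using no filter on low counts gave Xbp1 0.015 in AAV-miR SOD1 versus both control groups. DESeq2 gave Atf4 0.017 and Xbp1 0.0035 in AAV-miR SOD1 versus non-injected, Xbp1 0.048 in AAV-miR SOD1 versus both control groups. Limma-voom gave Xbp1 -0.19 in AAV-miR SOD1 versus AAV-miR ctrl, Atf4 0.031 and Eif2ak3 -0.047 in AAV-miR SOD1 versus non-injected, Ddit3 -0.19 and Herpud1 -0.016 in AAV-miR ctrl versus non-injected. The libraries numbered 1 to 4 gave Hsp90b1 -0.00033 in AAV-miR SOD1 versus AAV-miR ctrl, Hspa5 0.23 and Xbp1 0.65 in AAV-miR SOD1 versus non-injected, Ddit3 -0.47 and Xbp1 0.21 in AAV-miR ctrl versus non-injected, Hspa5 0.10 and Xbp1 0.54 in AAV-miR SOD1 versus both control groups. Following the headers gave Xbp1 -0.14 in AAV-miR SOD1 versus AAV-miR ctrl, Xbp1 0.19 in AAV-miR SOD1 versus non-injected, Xbp1 0.33, Chac1 0.47, Herpud1 -0.13 and Dnajb9 -0.019 in AAV-miR ctrl versus non-injected, Xbp1 0.028 in AAV-miR SOD1 versus both control groups. Leaving out the 2 libraries whose headers disagree gave Xbp1 -0.12 in AAV-miR SOD1 versus AAV-miR ctrl, Atf4 0.10 and Trib3 0.084 in AAV-miR SOD1 versus non-injected, Xbp1 0.11, Chac1 0.32 and Herpud1 -0.032 in AAV-miR ctrl versus non-injected, Atf4 0.039 in AAV-miR SOD1 versus both control groups. Fitting the compared groups alone gave Atf4 0.042, Hspa5 0.012 and Xbp1 0.026 in AAV-miR SOD1 versus non-injected. The libraries numbered 5 and 6 gave Chac1 0.68 in AAV-miR ctrl versus non-injected. Scaling to motoneuron markers gave Ddit3 0.35 in AAV-miR SOD1 versus non-injected, Chac1 0.28 in AAV-miR ctrl versus non-injected, Ddit3 0.17 in AAV-miR SOD1 versus both control groups. When each library was left out in turn, these results also turned. In AAV-miR SOD1 versus AAV-miR ctrl the values ran from -0.014 to 0.15 for Hsp90b1 and from -0.25 to 0.35 for Xbp1. In AAV-miR SOD1 versus non-injected the values ran from -0.11 to 0.078 for Atf4, from -0.20 to 0.39 for Eif2ak3, from -0.17 to 0.062 for Hspa5, from -0.51 to 0.11 for Trib3 and from -0.36 to 0.24 for Xbp1. In AAV-miR ctrl versus non-injected the values ran from -0.31 to 0.28 for Chac1, from -0.26 to 0.20 for Ddit3, from -0.017 to 0.11 for Herpud1, from -0.0033 to 0.25 for Hspa5, from -0.10 to 0.46 for Trib3 and from -0.39 to 0.14 for Xbp1. In AAV-miR SOD1 versus both control groups the values ran from -0.16 to 0.012 for Atf4 and from -0.30 to 0.29 for Xbp1. Counts at an unadjusted p under 0.05 also depended on the setting, from 895 to 3169 genes higher and 813 to 2430 lower against both control groups, and from 1 to 3 members. Against AAV-miR ctrl they ran from 408 to 2010 higher, 444 to 2126 lower and 1 to 3 members. Against non-injected they ran from 863 to 2397 higher, 578 to 2128 lower and 0 to 2 members. Between the controls they ran from 136 to 761 higher, 217 to 840 lower and 0 to 1 members.

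Same-numbered libraries shared little: over 8 pairs the correlation of deviations from the group means was -0.19 to 0.24, and 3 of 13 libraries correlated best with one of their own number. With the replicate number as a block, signs turned for Hspa5 0.0016 and Hsp90b1 -0.012 in AAV-miR SOD1 versus AAV-miR ctrl, Hspa5 0.11, Xbp1 0.43 and Trib3 0.039 in AAV-miR SOD1 versus non-injected, Hspa5 0.055 and Xbp1 0.52 in AAV-miR SOD1 versus both control groups. The block called 0 genes in each comparison, and gave -0.24 for Ddit3 and -0.79 for Chac1 against both control groups. Precision is limited by 4 or 5 mice a group. Trib3 and Eif2ak3 were the members with the fewest reads, and the part of depth in their spread was not tested.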
